A study of Mus musculus with 22 samples.

Results

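Proteasome genes were followed in mouse liver on chow and after a high-fat diet, in messenger RNA and in histone acetylation at their promoters. The genes were taken by symbol: a name of the form Psma, Psmb, Psmc, Psmd, Psme, Psmf or Psmg followed by a number, without Psmb8, Psmb9 and Psmb10, the catalytic subunits of the immunoproteasome. This rule found 45 of the 23227 genes in the mRNA count files, and all 45 also had a row in the promoter table of 23167 symbols. The rule reaches beyond the constitutive subunits of the particle. Of the 45 genes, 31 code for a constitutive subunit of the 20S core or the 19S regulatory particle, and 14 code for assembly chaperones, other caps, an inhibitor, or forms made in testis or thymus. Counts are therefore given for the 45 genes and for the 31 subunits.

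The livers came from wild-type C57BL/6J mice of 24 weeks that had fasted overnight, and were frozen in place with cooled clamps and ground to powder. Chow animals had eaten standard chow throughout, and the other group a high-fat diet for 16 weeks, begun at 8 weeks of age. Each diet has 3 mRNA libraries, paired-end and made with a TruSeq kit that does not mark strand, and 3 chromatin immunoprecipitation libraries for histone H3 acetylated at lysine 27 (H3K27ac), a mark of active promoters and enhancers. The labels number the replicates without saying that an equal number is 1 animal across diets or assays, or that each library is a separate animal, so p-values measure the spread between these samples. No batch is named in the labels. Directory names in the peak-list headers differ between chow and high-fat diet, and if libraries were processed in batches along those lines, batch and diet cannot be told apart.

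The proteasome is the large protease that degrades proteins tagged with ubiquitin. Its barrel-shaped core is built of stacked alpha and beta rings, with the proteolytic sites inside the beta rings, and a cap, the 19S particle, recognises, unfolds and feeds in the substrate. Subunit genes are known to be transcribed together, and the transcription factor Nfe2l1 raises them when proteasome activity is short. In immune responses the interferon-induced subunits Psmb8, Psmb9 and Psmb10 take the places of Psmb5, Psmb6 and Psmb7.

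The start regions of 5 genes, chosen by their mRNA changes, are shown: the largest decreases of a chaperone (Psmd9), an alpha subunit (Psma5) and a lid subunit (Psmd12), the cap gene that decreased (Psme4) and the cap gene that increased (Psme2). A link between these sequences and the mRNA changes was not tested. The sequences are RefSeq promoter windows on GRCm38.p6, from 250 bases before to 50 after the annotated start, and 37 of the 45 genes matched an entry, without Psma8, Psmb1, Psmb2, Psmb7, Psmc3, Psmd3, Psmd7 and Psmg2. The deposited data are on mm9, so these coordinates belong to the sequences alone. Capitals mark 3 motifs, searched on both strands: the antioxidant response element core TGACNNNGC, the CCAAT box CCAAT, and the ETS core CCGGAAG.
Psmd9 (chr5:123227940-123228239, plus strand): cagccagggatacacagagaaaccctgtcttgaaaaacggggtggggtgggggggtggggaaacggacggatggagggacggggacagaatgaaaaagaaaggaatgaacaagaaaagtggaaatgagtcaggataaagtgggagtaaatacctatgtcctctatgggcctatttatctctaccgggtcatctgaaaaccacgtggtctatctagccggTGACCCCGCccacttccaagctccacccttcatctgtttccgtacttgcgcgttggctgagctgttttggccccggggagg
Psma5 (chr3:108256676-108256975, plus strand): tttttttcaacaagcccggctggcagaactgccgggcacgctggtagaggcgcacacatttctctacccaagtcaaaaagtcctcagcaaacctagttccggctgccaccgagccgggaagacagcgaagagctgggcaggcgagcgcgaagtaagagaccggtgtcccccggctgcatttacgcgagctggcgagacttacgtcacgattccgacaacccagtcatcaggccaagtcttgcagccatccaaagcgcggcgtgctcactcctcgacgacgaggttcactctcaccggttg
Psmd12 (chr11:107479278-107479577, plus strand): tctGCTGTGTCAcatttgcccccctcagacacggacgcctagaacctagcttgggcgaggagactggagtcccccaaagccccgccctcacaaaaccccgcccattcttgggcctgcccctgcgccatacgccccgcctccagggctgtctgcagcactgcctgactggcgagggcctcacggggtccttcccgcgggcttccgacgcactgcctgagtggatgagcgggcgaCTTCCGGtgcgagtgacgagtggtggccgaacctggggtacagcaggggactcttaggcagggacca
Psme4 (chr11:30771525-30771824, plus strand): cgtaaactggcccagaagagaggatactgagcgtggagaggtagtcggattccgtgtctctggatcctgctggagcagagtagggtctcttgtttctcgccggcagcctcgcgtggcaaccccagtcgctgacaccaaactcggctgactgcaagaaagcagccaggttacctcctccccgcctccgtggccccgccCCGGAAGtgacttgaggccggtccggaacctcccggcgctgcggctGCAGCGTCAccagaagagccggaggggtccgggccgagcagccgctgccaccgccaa
Psme2 (chr14:55590972-55591271, minus strand): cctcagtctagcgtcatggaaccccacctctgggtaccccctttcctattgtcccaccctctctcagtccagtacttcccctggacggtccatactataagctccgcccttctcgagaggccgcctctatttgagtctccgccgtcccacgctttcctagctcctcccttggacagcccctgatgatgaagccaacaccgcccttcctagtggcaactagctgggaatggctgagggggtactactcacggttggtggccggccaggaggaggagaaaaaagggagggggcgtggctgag
Psmd9 held the antioxidant core with its first base at −31 from the start. Psmd12 held that core at −247 and an ETS core at −17, and Psme4 held them at −7 and −53. None of the 3 motifs was in the window of Psma5 or in the window of Psme2 shown, which is 1 of 2 that RefSeq gives. Over the 37 genes with a window, the ETS core was in 14 (37.8%), against 9.93% of 27025 symbols with a window and 18.8% of the 9271 of these that were also tested in the mRNA. The antioxidant core was in 6 of the 37 (16.2%), against 14.0% and 17.2%, and the CCAAT box in 13 (35.1%), against 41.1% and 43.0%. A match describes the letters of the window and not a bound site.

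Total counts ran from 19016275 to 45741794 in the mRNA libraries and from 1967613 to 4964403 in the promoter table, and the 31 subunits had 941 to 10898 counts each per mRNA library and 75 to 486 per promoter. All 45 genes passed the filter on low counts in both assays, among 12909 genes and 20891 promoters tested. Hepatocyte markers were high in every library, with a summed level of 77319.9 to 97716 counts scaled to a common library total of 1e+06 (CPM) over 5 genes, and 3 T cell markers summed to at most 1.14 CPM. Markers of exocrine pancreas moved with diet: 18 of the 20 tested fell, against 17.6% of all genes tested. The 22 found in the files summed to 2467, 1094 and 410.2 CPM in chow replicates 1 to 3 and to 23.6, 243 and 11.1 CPM in high-fat replicates 1 to 3. Without chow replicate 1, which had the highest sum, 21 of the 31 subunits described below fell, against 13.7% of all genes tested. The sums of the remaining chow libraries were still above those of every high-fat library. The part of pancreatic RNA in the proteasome values was not tested.

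The mRNA of the proteasome particle was lower on the high-fat diet. Of the 31 constitutive subunits 24 fell, none rose, and all 31 had a negative log2 fold change (47.9% of all genes tested did), with a median of −0.40 and a range of −0.75 to −0.18. Over the 45 genes, 26 fell (17.6% of all genes tested fell), 1 rose (18.0%) and 18 did not pass the threshold, an adjusted p under 0.05, which 35.6% of all genes passed in either direction. With DESeq2 the count was also 26, against 16.9% of all genes, with 17.0% that rose. With total counts as the only scaling it was 24, where 12.8% of all genes fell and 21.7% rose. The other 14 genes of the rule gave 2 decreases, Psmd9 and Psme4, and the 1 increase, Psme2. Rose and fell are used of genes past that threshold in edgeR's quasi-likelihood test, high-fat diet against chow, with Benjamini-Hochberg adjustment over all genes tested.

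Summed over the 31 subunits, the level was 3422, 3669.7 and 3572 CPM on chow and 2929, 2548 and 2479 CPM on the high-fat diet. Every high-fat library lay below every chow library, and the mean was 3554 ± 125 CPM against 2652 ± 242 CPM (SD, n = 3 each), or 25.4% lower. The 20S core was 25.0% lower and the 19S particle 25.7% lower, so core and cap moved by nearly the same share. Scaled to total counts alone, the sum was 21.6% lower. Over all genes tested the median log2 fold change was 0.02. In these bulk samples, fewer cells of a type and less RNA per cell cannot be told apart.

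Per gene, the values of the diets did not overlap, with the high-fat libraries lower, in 27 of the 31 subunits and 31 of the 45 genes, against 25.5% of all genes tested. They did not overlap with the high-fat libraries higher in 2 of the 45, Psme2 and Psmg3, against 25.1%. Of the 31 subunits 28 had an unadjusted p under 0.05, as had 46.6% of all genes. The high-fat libraries were themselves uneven: replicate 1 was the highest of the 3 in 30 of the 31 subunits, against 43.2% of all genes, and with total counts in 21 of 31, against 21.99%. Without high-fat replicate 1, 31 of the 31 subunits fell, against 19.7% of all genes tested, and without chow replicate 2, 16 did, against 10.7%. In the authors' deposited table of mRNA results, 31 of the 31 subunits also had a negative log2 fold change, 27 of them fell, and 29 of the 45 genes fell and 1 rose, against 12.9% of all its genes that fell. Psmd14, which fell in edgeR's test, was not called in that table (log2 −0.20, adjusted p = 0.0711). The sign of its log2 fold change matched that from the counts in 83.8% of all genes in both, and its normalization is not given in the sources used here.

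**Figure D1:**
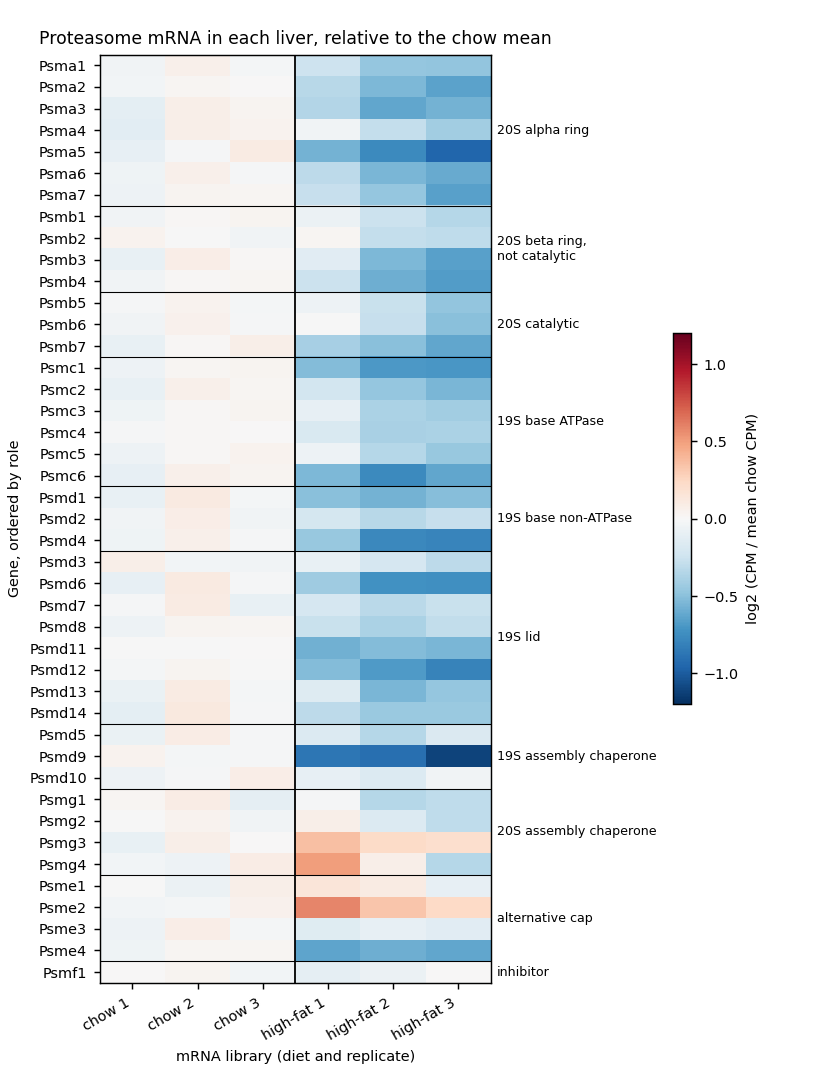
The mRNA level of each proteasome gene in each of the 6 libraries, as the log2 of its CPM divided by the gene's mean chow CPM. Genes are in rows ordered by role and libraries in columns. Psma8 and Psmb11 are not drawn. Most rows of the 20S core and the 19S particle are lower in the 3 high-fat libraries, high-fat replicate 1 least so, while Psme2 and Psmg3 are higher.

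In the alpha ring, whose N-terminal tails gate the entrance of the core, 6 of 7 genes fell. Psma5, an alpha subunit whose start region is shown above, measured 86.8, 91.8 and 99.4 CPM on chow and 62.6, 54.7 and 47.98 CPM on the high-fat diet. All 3 high-fat values were below all 3 chow values, and Psma5 was 1.68-fold lower (log2 −0.75, SE 0.108, adjusted p = 0.00145). The log2 fold changes of the others that fell were −0.51 for Psma3, −0.50 for Psma2, −0.48 for Psma6, −0.45 for Psma7 and −0.39 for Psma1. Psma4 did not pass, with a log2 fold change of −0.24 (edgeR adjusted p = 0.114) and high-fat replicate 1 within the chow range.

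Among the beta subunits without a proteolytic site, Psmb4 fell with a log2 change of −0.49 and Psmb3 with −0.43 (past the threshold under 6 of 11 alternatives), while Psmb1 (log2 −0.22, adjusted p = 0.0787) and Psmb2 (log2 −0.18, adjusted p = 0.195) did not pass in edgeR's test. Of the 3 catalytic genes, 1 fell. Psmb7, which carries the trypsin-like site, measured 145, 155 and 161 CPM on chow and 116, 108 and 99.4 CPM on the high-fat diet. The diets did not overlap, and Psmb7 was 1.42-fold lower (log2 −0.51, SE 0.0852, adjusted p = 0.00285).

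Psmb5, the gene of the chymotrypsin-like site, measured 57.9, 59.98 and 57.4 CPM on chow and 55.9, 48.6 and 42.1 CPM on the high-fat diet. Its high-fat values were all below the chow values, by little in replicate 1, and the difference did not pass in edgeR's test (log2 −0.26, SE 0.106, adjusted p = 0.09199, 95% interval −0.50 to −0.01). Psmb6, the gene of the caspase-like site, measured 96.9, 103 and 98.2 CPM on chow and 98.9, 82.1 and 70.1 CPM on the high-fat diet. High-fat replicate 1 lay within the chow range and the other two high-fat libraries below it (log2 −0.25, SE 0.12, adjusted p = 0.139, 95% interval −0.52 to 0.03). In the authors' deposited table both were called lower, with log2 fold changes of −0.45 for Psmb5 and −0.27 for Psmb6.

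The base of the 19S particle holds 6 ATPases that unfold substrates and open the core, and 5 of them fell. Psmc6 measured 100.002, 112 and 109 CPM on chow and 73.6, 62.97 and 69.8 CPM on the high-fat diet, and was 1.56-fold lower (log2 −0.64, SE 0.0866, adjusted p = 0.00107). Psmc1 measured 149.8, 158 and 160.1 CPM on chow and 109, 96.97 and 96.4 CPM on the high-fat diet, and was 1.55-fold lower (log2 −0.63, SE 0.0784, adjusted p = 0.000741). In both genes every high-fat library was below every chow library. Psmc2, Psmc4 and Psmc3 fell by less, with log2 changes of −0.40, −0.31 and −0.29, Psmc3 past the threshold under 4 of 11 alternatives, and Psmc5 (log2 −0.27, adjusted p = 0.0778) did not pass in edgeR's test. Psmc5 was called lower in the authors' deposited table, with a log2 fold change of −0.29.

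The 3 base subunits that are not ATPases all fell. Psmd4, a receptor that binds the ubiquitin chain, measured 149.9, 162 and 153 CPM on chow and 113, 90.7 and 89.5 CPM on the high-fat diet. The groups were apart, and Psmd4 was 1.59-fold lower (log2 −0.67, SE 0.102, adjusted p = 0.00191). Psmd1 and Psmd2, the large scaffold proteins of the base, had log2 changes of −0.52 and −0.28, the latter past the threshold under 7 of 11 alternatives.

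In the lid, which removes the ubiquitin chain before degradation, 7 of 8 genes fell. Psmd12 measured 103, 107 and 104 CPM on chow and 73.2, 65.7 and 60.3 CPM on the high-fat diet. The highest high-fat value was well below the lowest chow value, and Psmd12 was 1.58-fold lower (log2 −0.66, SE 0.0867, adjusted p = 0.000944). Psmd11 was even within each diet, with 115, 115 and 116 CPM on chow and 77.5, 80.4 and 79.2 CPM on the high-fat diet and a log2 change of −0.55. Psmd14, the deubiquitinase itself, fell by 0.40 on the log2 scale, and Psmd6, Psmd13, Psmd8 and Psmd7 had log2 changes of −0.62, −0.38, −0.31 and −0.26. Psmd7 passed under 5 of 11 alternatives and Psmd13 under 7. Psmd3 (log2 −0.20, adjusted p = 0.0946) did not pass in edgeR's test, although its high-fat values were all below its chow values. It was called lower in the authors' deposited table, with a log2 fold change of −0.45.

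The largest decrease among the 45 genes was in no subunit. Psmd9, a chaperone that helps to assemble the ATPases of the base, measured 70.3, 66.9 and 67.4 CPM on chow and 37.5, 36.4 and 31.6 CPM on the high-fat diet. The high-fat libraries lay together far below the chow libraries, and Psmd9 was 1.94-fold lower (log2 −0.96, SE 0.0868, adjusted p = 0.000207). The other chaperones of the base did not pass in edgeR's test, Psmd5 (log2 −0.22, adjusted p = 0.0768) and Psmd10 (log2 −0.10, adjusted p = 0.501).

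None of the 4 chaperones that assemble the core, Psmg1 to Psmg4, passed in edgeR's test, nor in DESeq2, and 1 of them, Psmg3, had an unadjusted p under 0.05. Their log2 changes ran from −0.21 for Psmg1 to 0.27 for Psmg3. Psmg3 measured 8.02, 8.96 and 8.55 CPM on chow and 10.96, 9.96 and 9.76 CPM on the high-fat diet, so its high-fat libraries were all above its chow libraries. Psmg3 passed with total counts as the only scaling (adjusted p = 0.0341, edgeR), and was not called in the authors' deposited table (log2 0.10). Psmg1 also passed under 1 of 11 alternatives, as a decrease. The inhibitor Psmf1 had a log2 change of −0.06 (adjusted p = 0.578), with a sign that turned under total counts. The testis form Psma8 and the thymus form Psmb11 were at most 1.18 CPM and did not pass.

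The caps that can replace the 19S particle went different ways. Psme4, the single large protein of the PA200 cap, measured 219, 232 and 232 CPM on chow and 147, 151 and 148 CPM on the high-fat diet. The libraries of each diet lay close together and the diets were apart, with Psme4 1.53-fold lower (log2 −0.61, SE 0.0695, adjusted p = 0.000503). Psme2, a subunit of the interferon-induced PA28 cap, measured 41.7, 42.0 and 44.1 CPM on chow and 63.9, 53.7 and 50.1 CPM on the high-fat diet. All 3 high-fat values were above all 3 chow values, and Psme2 was 1.31-fold higher (log2 0.39, SE 0.101, adjusted p = 0.0177). Without chow replicate 1, 2 or 3 in turn it no longer passed, with an edgeR adjusted p of up to 0.0711. Its partner Psme1 did not pass (log2 0.05, SE 0.0889, adjusted p = 0.683), nor did Psme3 of the nuclear cap (log2 −0.13, SE 0.0723, adjusted p = 0.204).

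**Figure D2:**
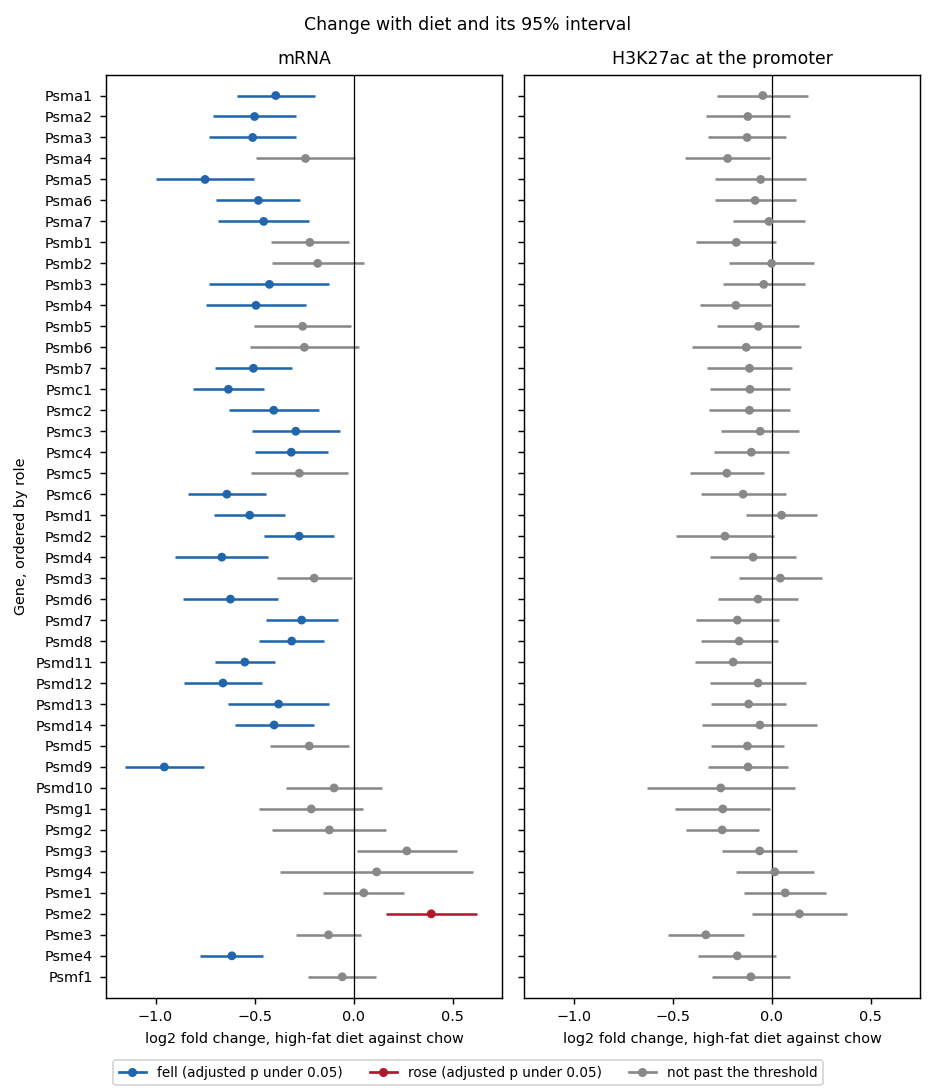
The log2 fold change of each proteasome gene, high-fat diet against chow, with its 95% interval, for mRNA on the left and promoter H3K27ac on the right. Psma8 and Psmb11 are not drawn. In mRNA most intervals of the subunits lie below 0, and those of Psme2 and Psmg3 lie above it, Psmg3 without passing the threshold. At the promoters no gene passed the threshold.

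Dividing each gene by the summed counts of the 31 subunits removes the scaling between libraries and sets each gene against the particle as a whole. For a subunit the quotient is its share of the sum. Psma5 went from a mean of 2.61% on chow to 2.07% on the high-fat diet, Psmd4 from 4.36% to 3.67% and Psmd12 from 2.95% to 2.503%, each without overlap between the diets. These genes were named for their large decreases, so their lower shares followed from the same counts. Because the shares make up the whole sum, other subunits gained share, among them Psmb1, Psmb2, Psmc3 and Psmd2, also without overlap. Among genes picked after their values were seen, the catalytic gene Psmb5 gained share, from 1.64% to 1.84%. So did the lid gene Psmd3, from 3.71% to 4.33%. Their own mRNA changes were negative (log2 −0.26 and −0.20), but smaller than that of the sum. Psmd9, Psme2 and Psme1 are not in the sum, so their values are ratios to it: Psmd9 went from 1.92% to 1.33%, Psme2 from 1.199% to 2.103% and its partner Psme1 from 1.74% to 2.42%, also without overlap. Because the sum was lower on the high-fat diet, a gene with little change of its own has a higher ratio. Psme1 was such a gene, with a log2 change of 0.05 in mRNA and diets that overlapped. These values are given without a test.

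The genes of the immunoproteasome, left out by the rule, rose, while of the subunits they replace 1 fell and 2 did not pass. Psmb8 rose 2.77-fold (log2 1.47, SE 0.113, adjusted p = 0.00012), Psmb9 3.47-fold (log2 1.79, SE 0.122, adjusted p = 8.36e-05) and Psmb10 2.73-fold (log2 1.45, SE 0.104, adjusted p = 9.54e-05). Within a library the counts of a pair can be set against each other with no scaling. Per 100 counts of Psmb5, Psmb8 had 17.2, 15.5 and 17.9 on chow and 52.5, 59.8 and 55.7 on the high-fat diet. Per 100 counts of Psmb6, Psmb9 had 5.22, 3.89 and 4.54 on chow and 16.8, 18.5 and 22.3 on the high-fat diet. Per 100 counts of Psmb7, Psmb10 had 6.803, 6.00 and 6.41 on chow and 25.3, 24.9 and 24.3 on the high-fat diet. In each pair the high-fat libraries were all above the chow libraries, and the mean ratio was 3.32, 4.22 and 3.87 times that on chow.

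Markers of other liver cells stood beside this as follows, where 18.0% of all genes tested rose and 17.6% fell. Of 8 macrophage markers 1 rose, Cd68, and their sum ran from 214 to 408 CPM on chow and from 254 to 487 CPM on the high-fat diet. None of 4 B cell markers passed, with sums of 1.39 to 4.02 and 2.46 to 3.03 CPM, and none of 5 endothelial or 5 cholangiocyte markers did. Of 6 stellate markers 2 rose and 1 fell, Dcn, which did not pass with total counts, and of 5 hepatocyte markers 1 rose and 2 fell. Median log2 changes were 0.48 for macrophage, 0.28 for stellate, 0.26 for endothelial and 0.22 for cholangiocyte markers. For B cell and hepatocyte markers they were 0.005 and −0.17, against 0.02 for all genes tested. The part of these cells in the proteasome values was not tested.

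**Figure D3:**
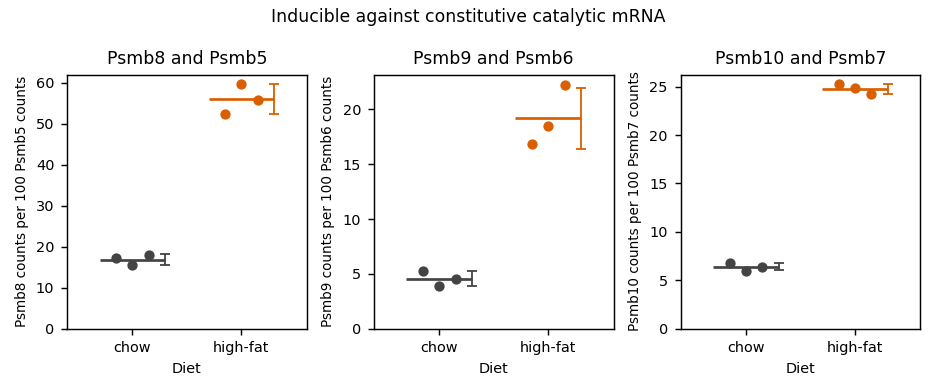
Counts of the immunoproteasome gene per 100 counts of the constitutive gene it replaces, in each mRNA library, with the mean and SD per diet (n = 3 each). In all 3 pairs the 3 high-fat libraries sit above the 3 chow libraries.

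Genes that work with the proteasome but lie outside the rule were mixed. Of 11 partners tested, 4 fell and none rose, against 17.6% and 18.0% of all genes tested. The largest changes were in Txnl1, a thioredoxin-like protein bound to the 19S particle (log2 −0.64), and Zfand5, an activator of the particle (log2 −0.51). Pomp, the maturation factor of the core, had log2 0.01, adjusted p = 0.927, and Adrm1, a ubiquitin receptor of the 19S particle, had log2 −0.08, adjusted p = 0.476, both in edgeR's test. The median log2 change of the 11 was −0.08, against −0.40 for the 31 subunits and 0.02 for all genes tested.

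Of 10 regulators of proteasome genes 4 rose and 3 fell, against 18.0% and 17.6% of all genes tested. Nfe2l1, the transcription factor named above, measured 163, 176 and 153 CPM on chow and 228, 233 and 236 CPM on the high-fat diet, and all high-fat libraries were above all chow libraries (1.42-fold higher, log2 0.51, SE 0.0784, adjusted p = 0.00199). The largest changes were in the small Maf proteins, partners of Nfe2l1 on DNA: Maff rose 4.996-fold and Mafk 1.74-fold. Among 13 ubiquitin and shuttle genes 2 rose and 4 fell, against the same 18.0% and 17.6%. The largest in each direction were the polyubiquitin gene Ubb (log2 0.55) and Rps27a, which codes for ubiquitin fused to a ribosomal protein (log2 −0.63).

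At the promoters, H3K27ac of the proteasome genes was slightly lower on the high-fat diet and no single promoter passed. None of the 45 promoters was called by edgeR's test or by DESeq2, nor in the authors' deposited table, and 7 of the 45 had an unadjusted p under 0.05 in edgeR's test, against 14.0% of all promoters. Calls were rare throughout: edgeR called 0.235% of 20891 promoters, 0.187% higher and 0.0479% lower, and DESeq2 called 0.202% higher and 0.0416% lower. The authors' deposited table lists 0.0487% as lower. The log2 fold change was negative in 39 of 45 promoters and in 29 of the 31 of subunits, against 50.6% of all promoters, with a median of −0.11 for both sets and a value near 0, −0.003, for all promoters. Of all promoters, 25.6% had a change at least as negative as the median of the 45. The diets did not overlap, with the high-fat libraries lower, in 13 of the 45, against 9.73%, and in none with the high-fat libraries higher, against 9.77%.

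Summed over the 31 subunits, promoter H3K27ac was 2087, 2120.4 and 2136 CPM on chow and 1978, 1978 and 1954 CPM on the high-fat diet. The high-fat libraries were all below the chow libraries, by 6.84% in the mean, or 4.98% with total counts. The mean of the mRNA sum was lower by 25.4%. No background was subtracted from the promoter counts, so the sizes of the promoter and mRNA changes are not on a common scale. The median SE of a subunit's promoter log2 change was 0.09998, so changes of the median size were not detectable gene by gene at this depth.

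Psme3 had the most negative promoter value, with 79.0, 79.5 and 74.3 CPM on chow and 54.3, 64.02 and 63.6 CPM on the high-fat diet. Its high-fat libraries were below its chow libraries, with a log2 change of −0.33 (edgeR adjusted p = 0.109), while its mRNA did not pass. Psmg2 and Psmc5 had log2 changes of −0.25 and −0.23. The promoter of Psmd9, whose mRNA changed most, measured 79.0, 64.5 and 67.4 CPM on chow and 61.7, 69.3 and 63.3 CPM on the high-fat diet. These overlapped, with a log2 change of −0.12 and a 95% interval of −0.32 to 0.08. The promoter intervals were −0.27 to 0.14 for Psmb5, −0.40 to 0.15 for Psmb6 and −0.33 to 0.10 for Psmb7, and Psme2 had a log2 change of 0.14, whose sign turned without chow replicate 1.

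Set side by side, mRNA and promoter were both negative in 38 of the 45 genes and in 29 of the 31 subunits. Of the 26 genes that fell in mRNA, none passed at the promoter, and their median log2 change was −0.50 in mRNA and −0.11 at the promoter. In 23 of these 26, chosen by their mRNA, the 95% interval of the promoter change lay above the mRNA change. Over all 45 genes it lay above or below it in 28. That interval leaves out the error of the mRNA value and compares different libraries. Background signal was not subtracted from the promoter counts, so the sizes of change in the assays are not on a common scale. Of the related genes, the promoters of Psmb8 (log2 0.30, adjusted p = 0.228), Psmb9 (log2 0.48, adjusted p = 0.0662), Psmb10 (log2 0.18, adjusted p = 0.368) and Nfe2l1 (log2 −0.11, adjusted p = 0.603) did not pass in edgeR's test either.

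**Figure D4:**
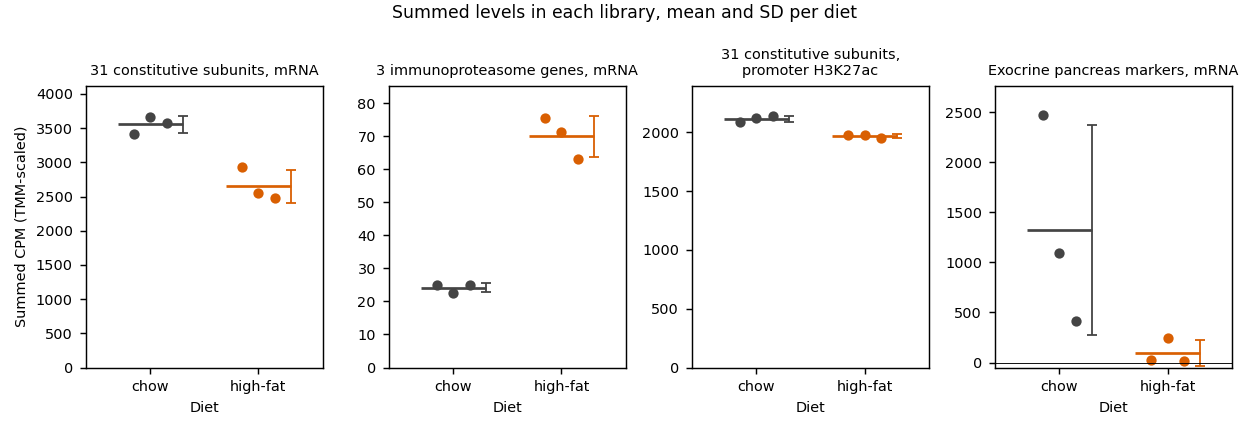
Summed CPM in each library, with the mean and SD per diet (n = 3 each): the mRNA of the 31 constitutive subunits, the mRNA of the 3 immunoproteasome genes, the promoter H3K27ac of the 31 subunits, and the mRNA of the exocrine pancreas markers. On the high-fat diet the subunit mRNA and the promoter signal are both lower and the immunoproteasome sum is higher. The pancreas markers are spread over a wide range on chow.

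Some of these values carry a limit of counting. RefSeq lists pseudogenes of Psma5, Psmb5, Psmb6 and Psmb7 that were not analysed here, so reads shared with such copies make these 4 genes uncertain. Without strand, reads of overlapping and antisense genes cannot be told apart.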

How the data were processed

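Counts of 6 mRNA and 6 H3K27ac libraries of liver were used, 3 per diet in each. Per the submitters' processing notes, the authors used TopHat 1.4.0, HTSeq, DESeq2 1.0.18 and bedtools for mRNA, and Bowtie 0.12.7, MACS 1.4.0rc2, bedtools and DESeq2 for chromatin, on mm9. Which tool made which file, and the width of a promoter, are not given in the sources used here. The deposited files used hold raw counts per gene and per promoter. The authors' deposited tables of results hold log2 fold changes with standard errors and adjusted p-values, rest on a normalization not given in the sources used here, and were used only where named.

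Each count table was fitted whole in R 4.3.3 with edgeR 4.0.16: filterByExpr by diet (minimum count 10, minimum total count 15), TMM factors, and the two-sided quasi-likelihood F test with diet as the only term. P-values were adjusted by Benjamini-Hochberg over all features tested, with a threshold of 0.05. The SE was derived from the log2 fold change and its F value, and 95% intervals use the degrees of freedom of the test. CPM are counts divided by the TMM-scaled total, times 1e+06. Reads carry no molecular identifiers. The script was tested on simulated data. Alternatives were DESeq2 1.42.0, its size factors, total counts, no filter, the replicate number as a block, and each replicate left out.

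Genes named with every value were the catalytic genes, up to 6 members with the largest change past the threshold in each direction and up to 2 per direction at promoters. Of each related list the 2 largest changes past the threshold were named, with Psmb8, Psmb9, Psmb10, Nfe2l1, Pomp and Adrm1. Psme4, Psmd11, Psmg3 and Psme3 were given in full after their values were seen. The members and all lists were chosen with earlier results of these data known.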

Additional observations from a re-analysis of the deposited data

How the results depend on the processing

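Of the 26 decreases in mRNA, 18 (16 of them subunits) passed under all 11 alternatives, and Psmb3, Psmc2, Psmc3, Psmc4, Psmd2, Psmd7, Psmd8 and Psmd13 were lost under at least 1. Psmc3 passed under 4 of the 11, Psmd7 under 5, Psmb3 under 6, Psmd2 and Psmd13 under 7, Psmc2 and Psmc4 under 9 and Psmd8 under 10. All 31 subunits kept a negative log2 change under every one of the 11. The number of genes that fell was 26 with DESeq2 and with its size factors, 24 with total counts and 25 without the filter, and 18 to 34 with 1 replicate left out (18 without chow replicate 2, where 10.7% of all genes fell, and 34 without high-fat replicate 1, where 19.7% did). For the subunits it was 22 to 24, and with the same replicates left out 16 to 31. The number that rose was 2 with total counts (Psme2 and Psmg3) and 0 to 1 with 1 replicate left out (0 without each chow replicate). With total counts, 12.8% of all genes fell and 21.7% rose, against 17.6% and 18.0%, and the median of all genes moved from 0.02 to 0.10.

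At the promoters no member was called under any alternative. In mRNA with the replicate block, 24 members fell, 22 of them subunits, and 1 rose, against 16.9% and 17.6% of all genes. For each gene, log2 CPM in each library was taken as the difference from the mean of its diet. Between same-numbered libraries these differences correlated with r of 0.10, −0.07 and 0.16 in mRNA and 0.09, −0.01 and 0.05 at promoters. Against other numbers the best r was 0.07, 0.04 and −0.02 in mRNA and −0.01, 0.03 and 0.13 at promoters, per chow library. With 3 libraries per diet these values cannot decide pairing, because the differences within a diet cancel. The labels name no pairs, so the numbers were not taken as pairs. Signs turned for the mRNA of Psmg4 (−0.12 without high-fat replicate 1), Psmf1 (0.02 with total counts) and Psmb11 (0.06 without chow replicate 1, 0.07 without high-fat replicate 2), and for the promoters of Psmb5 (0.02 without high-fat replicate 1) and Psme2 (−0.01 without chow replicate 1), none of them past the threshold there. With 1 replicate left out, Psmg4 ran from −0.12 to 0.30, Psmb11 from −0.57 to 0.07, promoter Psmb5 from −0.14 to 0.02 and promoter Psme2 from −0.01 to 0.24. The cause was not tested. Summing promoter rows per symbol was not run, because each symbol has 1 row. Leaving out the 14 genes that are no constitutive subunit was chosen after seeing the data. With 75 to 486 counts per subunit promoter and library, changes of the size of the promoter median could not be called gene by gene.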
